A study of Rattus norvegicus with 8 samples.

Results

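Mcl1 and its relatives form the BCL2 family, the proteins that decide whether a mitochondrion releases its death signals, and this account follows 10 listed genes of that family in rat limb muscle under excess thyroid hormone. The genes were Mcl1, Bcl2, Bcl2l1, Bcl2l11, Bax, Bak1, Bad, Bid, Bnip3 and Bnip3l. Members were all probe sets, the groups of short probes that each read 1 stretch of a transcript, whose platform annotation carried 1 of these symbols and no other. The rule found 16 of the 31099 probe sets on the array, and they covered 9 of the 10 genes. For Bax the 1 probe set that names it also names a second locus (LOC681314), so it is described beside the members and not counted with them. Mcl1 was chosen by its higher intensity in hyperthyroid than in control muscle, the same contrast that is described here, and its relatives were listed by name with results of these arrays known. Differences of the members between the groups are therefore given as descriptions.

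The family works by contact between its own members. MCL1, BCL2 and BCL-XL (the product of Bcl2l1) hold back cell death, BAX and BAK open the outer mitochondrial membrane, and proteins that share only a short BH3 segment with the family, such as BIM (Bcl2l11), BAD and BID, tip the balance by binding the others. MCL1 is known for its short-lived protein and for roles in mitochondrial structure in heart and skeletal muscle. BNIP3 and BNIP3L sit on the outer mitochondrial membrane and recruit the autophagy machinery, so they serve as receptors for the removal of mitochondria. Thyroid hormone raises mitochondrial turnover in muscle.

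The muscle was tibialis anterior, a fast limb muscle, from adult Sprague-Dawley rats of 200 ± 40 g at the start. In the hyperthyroid group, 4 rats received triiodothyronine (T3) into the peritoneum at 25 µg per 100 g on alternate days for 6 weeks and were killed 24 hours after the final injection. The 4 control rats are labelled as untreated, and no vehicle is named. Each group held 3 males and 1 female, with 1 array a rat, and the female's array is not marked in the labels. Values per array are given below in 1 order, replicates 1, 2, 3 and 5 for the hyperthyroid rats and replicates 7, 8, 9 and 11 for the controls.

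All 8 markers of skeletal muscle, among them Acta1, Ckm and Myh4, were above the filter on low values, which lay at an intensity of about 22.4. Their summed intensity was lower in the hyperthyroid group, from 228332 to 282181 against 287761 to 336747 in controls (two-sided exact permutation p = 0.0286, which is the minimum for 4 against 4). Taken singly, all 8 lay below 0 in log2 fold change (limma, smallest adjusted p = 0.214). The groups did not overlap for Acta1, Ckm, Tnnt3 and Atp2a1, but overlapped for Mb, Actn3, Myh1 and Myh4. The groups also did not overlap in array medians (38.8 to 42.0 against 43.5 to 54.9), in the share of signal held by the 100 brightest probe sets (22.4 to 25.1% against 26.4 to 28.4%) or in the ratio of the 3' to the 5' Gapdh control probe set (1.20 to 1.31 against 1.33 to 1.46), each with the same permutation p of 0.0286. Adjusted over the 21 technical and marker measures compared, each of these p-values was 0.12. The same ratio for the beta-actin control probe sets overlapped between the groups, at 1.43 to 1.90 against 1.48 to 2.16. Its two-sided exact permutation p was 0.314 (0.508 adjusted). The labelled RNA was primed from the poly(A) tail, so signal depends on how far copies reach from the 3' end. The lowest value on any array was 0.122, so no marker was listed at 0. Fewer cells of a type and less RNA per cell cannot be told apart in such whole-muscle RNA.

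Of the 16 member probe sets, 9 passed the filter and were tested, and they stood for Mcl1, Bak1, Bcl2l11, Bad, Bid, Bnip3 and Bnip3l. The other 7 lay under it, among them every probe set of Bcl2 and Bcl2l1. The edge of the filter ran between Bak1, just inside with a mean log2 level of 5.10, and the 1370787_at probe set of Bcl2l11, just outside with 4.52. At an adjusted p under 0.05 over all 18625 tested probe sets, 1 of the 9 was called, that of Mcl1, against 0.0322% of all tested probe sets (6 called, all higher). Because this contrast chose Mcl1, nothing is read from that count. The median log2 fold change of the 9 was 0.11, beside -0.0077 over all tested probe sets, with 6 above 0 and 3 below.

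**Figure D1:**
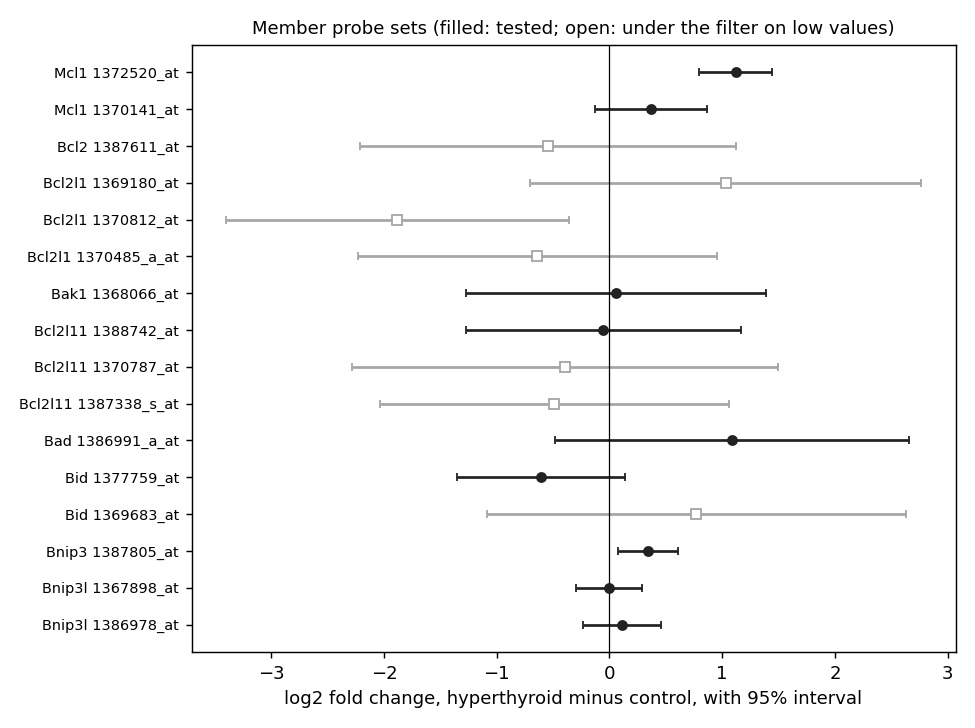
Log2 fold change of hyperthyroid over control for each of the 16 member probe sets, with its 95% interval; filled circles passed the filter on low values and open squares did not. Mcl1 (1372520_at) at 1.12 and Bnip3 at 0.34 are the tested members whose intervals lie above 0, while the intervals of Bad, Bak1 and Bcl2l11 are several times wider.

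The sequence around the start of Mcl1 is shown because it is the member whose probe set was called. It comes from RefSeq (GRCr8, chr2:185907918-185908217, plus strand), reads from 250 bases before to 50 bases after an annotated start, and carries in capitals each match to CCGGAA, the core bound by ETS factors, and to TGACG, the half-site of the cAMP response element. Both strands were searched, so the half-site appears here as its complement. The annotated range of Mcl1 (chr2:185884840-185912532) begins 23328 bases upstream of this start, so the window covers 1 start inside that range and not the outermost one.

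Mcl1: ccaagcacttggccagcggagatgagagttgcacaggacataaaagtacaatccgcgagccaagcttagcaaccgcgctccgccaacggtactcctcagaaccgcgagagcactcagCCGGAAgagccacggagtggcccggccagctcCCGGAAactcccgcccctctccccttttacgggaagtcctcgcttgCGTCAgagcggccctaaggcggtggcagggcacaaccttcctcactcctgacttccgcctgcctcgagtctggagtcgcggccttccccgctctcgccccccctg

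CCGGAA began at positions -133 and -101 from the start and the cAMP half-site at -55, and none of the 3 matches overlapped another. Of 33469 rat windows of the same length, 15.0% held CCGGAA and 21.2% held TGACG. The letters AGGTCA, the half-site of thyroid hormone receptors, were not in this window on either strand, nor in the windows of the other members with an entry, and 16.2% of all windows held them. CCGGAA also matched 2 times for Bid, 2 times over the windows of Bcl2l1 and 1 time for Bcl2l11. It was not found for Bcl2, Bak1, Bad or Bnip3, and TGACG was not found for any other member. Sequence at the outermost start of Mcl1 was not searched. Of the other motifs searched on both strands, Mcl1 held 1 match to the SP1 core GGGCGG, which 33.1% of windows held. It held none to the STAT motif TTCNNNGAA (8.87% of windows), the FOXO motif GTAAACA (3.78%), the CArG box (1.64%) or the hypoxia response core (41.6%). Entries were found for 8 of the 10 genes. These are matches of letters and were not tested as binding sites.

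Mcl1 was read by a pair of probe sets. On the brighter one (1372520_at), the hyperthyroid arrays gave intensities of 1653, 1646, 1886 and 2036. The control arrays gave 668, 922, 969 and 779. Every hyperthyroid array lay above every control array, with a gap between 969 and 1646.

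The mean was 1805 ± 190.2 in the hyperthyroid group and 835 ± 137 in controls (SD, n = 4 each). This is a 2.17-fold difference on the scale of log2(intensity + 3.41), with a 95% interval of 1.74 to 2.72, or a log2 fold change of 1.12 ± 0.15 (SE). Within groups this probe set varied little, with a standard deviation of 0.20 on the log2 scale, at the 12th percentile of all tested probe sets.

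The dimmer probe set of Mcl1 (1370141_at) gave 279, 186, 250.1 and 207 in hyperthyroid muscle, and 126, 202, 229 and 163 in controls. Here the groups overlapped, since hyperthyroid replicate 2 lay below control replicates 8 and 9. The log2 fold change was 0.37 ± 0.23 (SE), with a 95% interval of -0.13 to 0.86. The interval of the brighter probe set (0.80 to 1.44) overlaps with it at 1 end, and the difference between the probe sets was not tested.

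Set against their own control means, both probe sets put the 4 control arrays in the same order, with replicate 9 highest and replicate 7 lowest. They put the hyperthyroid arrays in different orders. The brighter probe set stood highest on replicate 5 (1.30 above its control mean on the log2 scale) and the dimmer one on replicate 1 (0.66). The rise of the brighter over the dimmer one was 0.34 on hyperthyroid replicate 1, 0.69 on replicate 3, 0.91 on replicate 2 and 1.06 on replicate 5, against -0.15 to 0.17 on control arrays. The probe sets therefore stood unequally far from their controls on each hyperthyroid array.

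**Figure D2:**
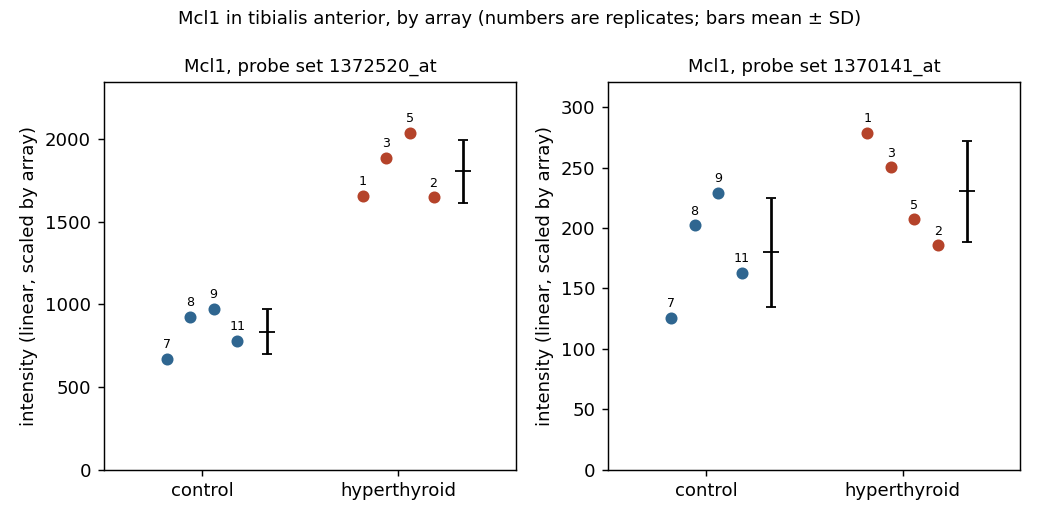
Intensity of Mcl1 on each array for its brighter (1372520_at, left) and dimmer (1370141_at, right) probe set, on linear axes from 0, with replicate numbers and the group mean ± SD at the side. On the left the 4 hyperthyroid arrays (1646 to 2036) are all above the 4 controls (668 to 969), and on the right the groups overlap.

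The size of the Mcl1 difference depended little on any single array, but its call did. With 1 array left out, the log2 fold change of the brighter probe set ran from 1.02 to 1.20. Without control replicate 9 it was still called (1.20, limma adjusted p = 0.0309). It was not called without hyperthyroid replicate 1, 2, 3 or 5 (1.16, 1.16, 1.10 and 1.06, limma adjusted p = 0.0528, 0.0620, 0.164 and 0.0534). Nor was it called without control replicate 7, 8 or 11 (1.02, 1.17 and 1.09, limma adjusted p = 0.101, 0.0518 and 0.0514). Averaging both probe sets gave 0.74 (limma adjusted p = 0.261).

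**Figure D3:**
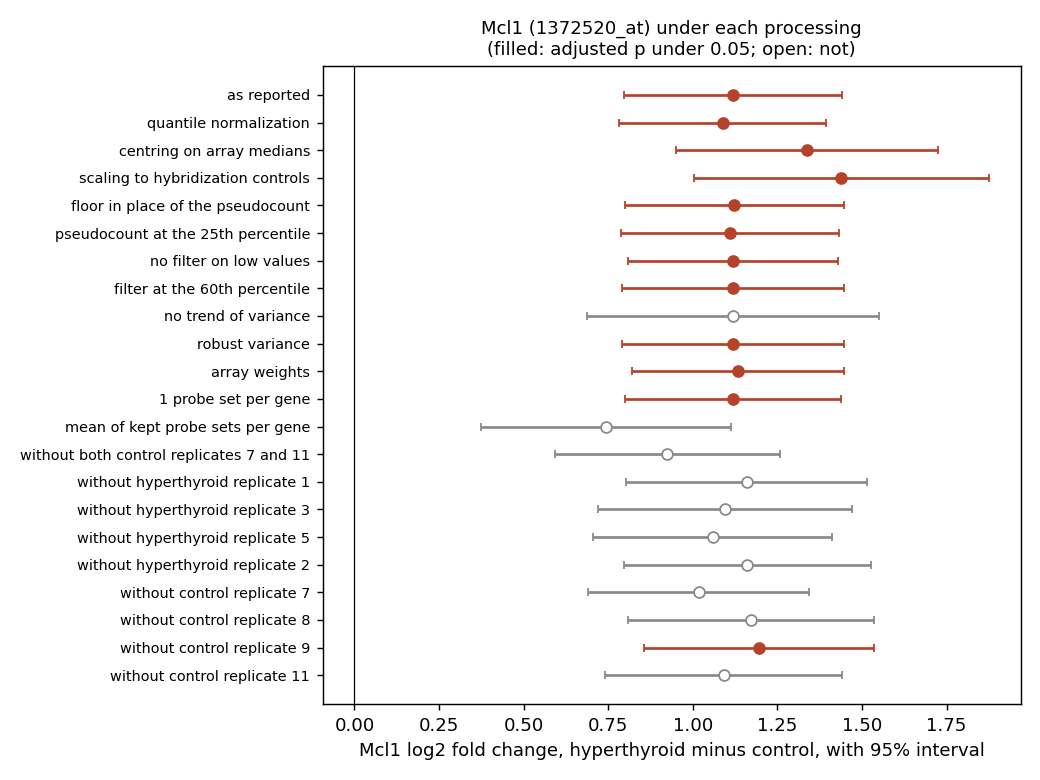
Log2 fold change of the brighter Mcl1 probe set (for 1 setting, the mean of both probe sets) with its 95% interval under each processing; filled points had an adjusted p under 0.05. All points lie between 0.74 and 1.44 and no interval reaches 0, while the points with 1 array left out are open except the one without control replicate 9.

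Control replicates 7 and 11, the lowest controls in Mcl1, were also the arrays richest in slow-fibre transcripts. The summed intensity of 8 slow-fibre markers (Myh7, Tnnc1, Tnni1, Tnnt1, Atp2a2, Myl2, Myl3 and Tpm3, all above the filter) was 43137 and 29446 on these arrays. On control replicates 8 and 9 it was 5889 and 4504, within the range of 1394 to 8919 on hyperthyroid arrays. On those 2 controls Mcl1 stood at 922 and 969. Without control replicates 7 and 11 the log2 fold change of the brighter probe set was 0.92 (limma adjusted p = 0.165), and that of the dimmer one was 0.08 in place of 0.37. Replicates 7 and 11 were the lowest controls on both Mcl1 probe sets, so the difference shrinks without them whatever their fibres. The part of slow fibres in the Mcl1 difference was not tested. The Gapdh 3' to 5' ratio and the share of the brightest probe sets moved with the groups as given above, and their part in the Mcl1 difference was not tested.

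Markers of other cells overlapped between the groups, those of smooth muscle only narrowly. The sum of 9 leukocyte markers ran from 674 to 2137 on hyperthyroid and from 713 to 1762 on control arrays. Of these markers 6 passed the filter, and Ptprc, Cd3e and Itgam lay under it. The sum of 4 erythroid markers, of which all but Ahsp were above the filter, ran from 4328 to 7915 and from 4209 to 12895. For 5 endothelial markers, all above the filter, it ran from 669.7 to 1259 and from 816 to 996. The sums of 5 Schwann cell markers with Mag and Sox10 under the filter (633 to 1143 against 328 to 3071), 5 smooth muscle markers (816 to 1029.7 against 1021 to 1704) and 4 adipocyte markers (1272 to 2634 against 1209 to 2506) overlapped as well. For the smooth muscle sum the two-sided exact permutation p was 0.0571 (0.15 adjusted). All 5 smooth muscle markers lay below 0 in log2 fold change, with a median of -0.57, and none was called. Among the controls, replicates 7 and 11 had the highest sums for each of these cell types. For Schwann cell markers they stood at 3071 and 2125, against 328 and 487 on replicates 8 and 9. For smooth muscle markers they stood at 1704 and 1496, against 1021 and 1053. The part of these cells in the members' values was not tested.

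Bcl2, the founding anti-apoptotic member, was dim. Its probe set (1387611_at) gave 28.5, 13.4, 15.0 and 3.25 in hyperthyroid muscle, and 47.4, 2.80, 19.5 and 38.3 in controls. The groups overlapped fully, and 5 of the 8 values lay under the filter.

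Bcl2l1, which encodes BCL-XL, had 3 probe sets, all under the filter, and their patterns differed. On 1370812_at the hyperthyroid arrays (3.27 to 14.8) all lay below the control arrays (16.4 to 75.3), with means of 7.48 ± 5.41 and 39.6 ± 27.6 (SD, n = 4 each). It was above the filter on 2 of 8 arrays and was not tested. On 1369180_at they ran from 19.0 to 42.4 and the controls from 1.45 to 50.3. On 1370485_a_at, whose name marks a probe set shared by transcript variants of the gene, they ran from 1.43 to 26.7 and the controls from 2.27 to 38.5. Of the 7 untested member probe sets, 1370812_at was the 1 whose groups did not overlap. Of all 12417 probe sets under the filter, 3.29% did not overlap in either direction and 2.42% were lower without overlap.

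The transcripts of the membrane-opening proteins gave no clear difference. Bak1 (1368066_at) stood at 37.5, 24.3, 44.9 and 23.6 in hyperthyroid muscle, inside the control range of 13.1 to 80.8. The controls were split, with replicates 7 and 8 at 14.4 and 13.1 and replicates 9 and 11 at 47.9 and 80.8. Its log2 fold change was 0.055 ± 0.62 (SE), with a 95% interval of -1.28 to 1.39, and it ran from -0.29 without control replicate 8 to 0.50 without control replicate 11. The sign also turned without hyperthyroid replicate 1 or 3 or control replicate 7 (-0.02, -0.10 and -0.25).

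The probe set that Bax shares with LOC681314 (1369122_at) gave 178, 103, 113 and 87.6 in hyperthyroid muscle and 109, 183, 114 and 104 in controls. The ranges nearly coincide, with a log2 fold change of -0.092 ± 0.28 (SE) and a 95% interval of -0.69 to 0.51. Signal of the 2 loci cannot be separated on it.

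Among the BH3-only members, Bad had a high fold change that rested on 1 array. Its probe set (1386991_a_at) gave 80.2, 117, 92.2 and 92.5 in hyperthyroid muscle. The controls gave 64.5, 2.51, 138 and 75.8, so control replicate 8 was far below the rest and control replicate 9 was the highest of all. The log2 fold change was 1.09 ± 0.73 (SE), and 0.10 without control replicate 8. Its spread within groups was at the 98.8th percentile of tested probe sets.

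Bid, which links death receptors to mitochondria, gave 61.7, 68.9, 28.4 and 82.6 in hyperthyroid muscle and 76.1, 79.4, 91.6 and 108 in controls (1377759_at). Of the hyperthyroid arrays, 3 lay below all controls and replicate 5 lay among them. The log2 fold change was -0.61 ± 0.35 (SE), with a 95% interval of -1.36 to 0.14. It was below 0 under all 19 alternatives tried on it, of which those of filter and variance trend cannot change it. The second probe set of Bid (1369683_at) was under the filter and ran from 1.19 to 37.1 in hyperthyroid and from 1.34 to 57.9 in control muscle.

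Bcl2l11, which encodes BIM, was tested on 1 of its 3 probe sets. On 1388742_at the hyperthyroid arrays gave 91.7, 64.4, 61.9 and 28.0, and the controls 89.7, 13.5, 73.6 and 124. The groups overlapped, and control replicate 8 was again the lowest array. The log2 fold change of -0.056 ± 0.57 (SE) changed sign under 9 of 19 alternatives. It was -0.69 without control replicate 8, and above 0 without hyperthyroid replicate 5 or control replicate 7, 9 or 11 (0.26, 0.13, 0.04 and 0.28). The 2 probe sets under the filter ran from 1.66 to 65.8 and from 1.75 to 13.8 on hyperthyroid arrays, and from 6.34 to 94.6 and from 3.14 to 49.8 on controls.

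**Figure D4:**
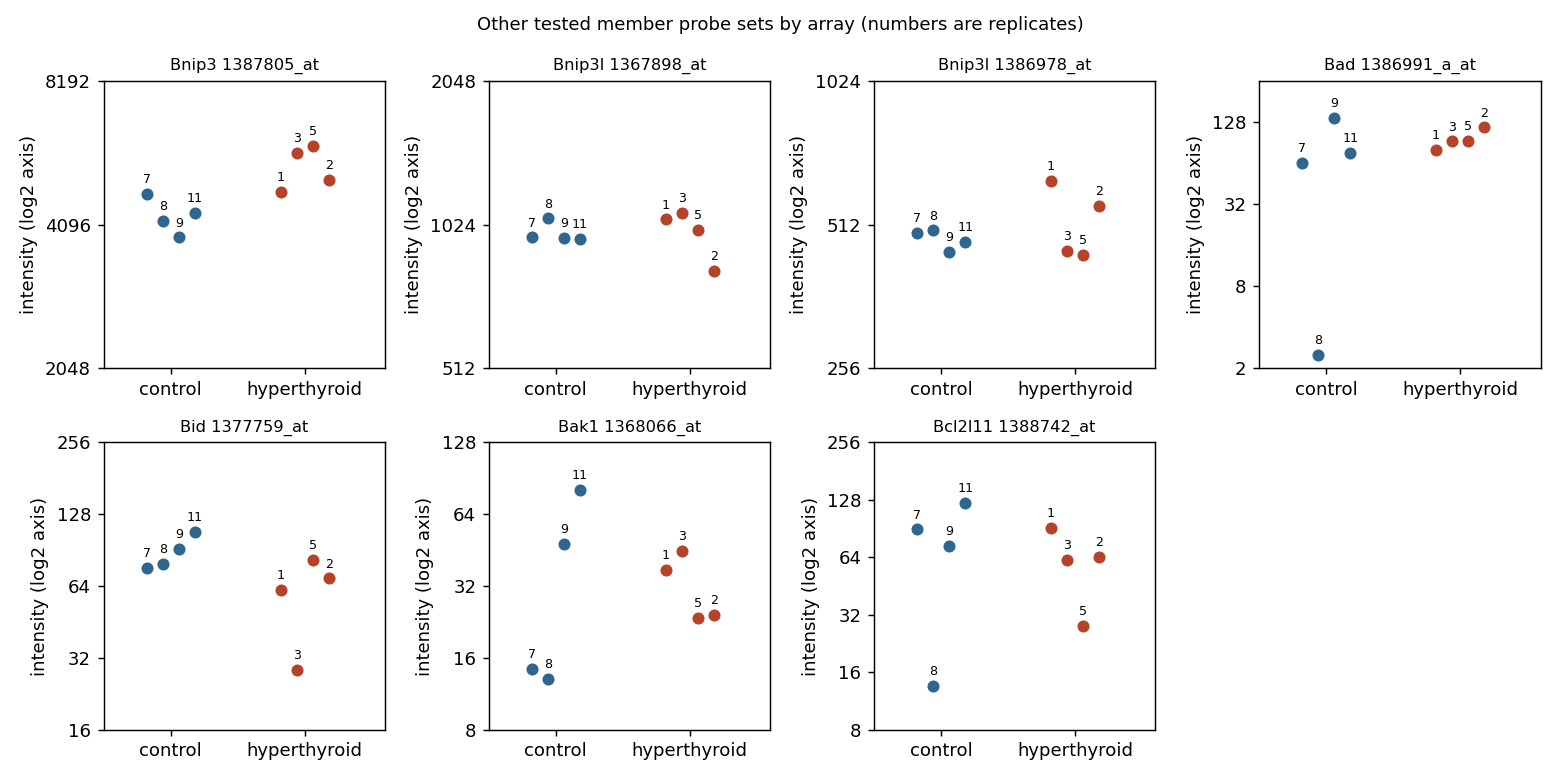
Intensity on each array, on log2 axes that differ between panels, for the 7 tested member probe sets other than those of Mcl1; numbers are replicates. Bnip3 and both probe sets of Bnip3l vary least across arrays, and control replicate 8 stands at 2.51 for Bad and 13.5 for Bcl2l11.

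Of the mitophagy receptors, Bnip3 was somewhat higher in hyperthyroid muscle and Bnip3l was not clearly different. Bnip3 (1387805_at) gave 4803, 5076, 5796 and 5993 in hyperthyroid muscle, and 4755, 4169.7, 3851 and 4337 in controls. The groups did not overlap, although only a narrow margin separated hyperthyroid replicate 1 from control replicate 7.

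The means of Bnip3 were 5417 ± 568 and 4278 ± 376 (SD, n = 4 each), a 1.26-fold difference with a 95% interval of 1.05 to 1.52. It was not called (limma adjusted p = 0.417), nor was it under any of 19 alternatives, whose log2 fold changes ran from 0.29 to 0.66. An unadjusted p under 0.05 was reached by 2 of the 9 tested member probe sets, Mcl1 and Bnip3, and by 9.68% of all tested probe sets. The same 2 were the tested members whose groups did not overlap, both higher, against 2.99% of tested probe sets that did so in that direction and 6.15% in either. Nothing is read from these counts, since this contrast chose the lead member.

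Bnip3l (1367898_at) gave 1049.8, 819, 1083 and 998 in hyperthyroid muscle and 963, 1056, 960.1 and 957 in controls. Its means of 987 ± 118 and 984 ± 47.8 (SD, n = 4 each) were nearly equal, and the 95% interval of the ratio was 0.815 to 1.22. The sign of its log2 fold change (-0.0018) turned without hyperthyroid replicate 2 (0.09) or control replicate 8 (0.03). The second probe set (1386978_at) gave 632, 561, 451 and 442 against 493, 498, 449 and 471 in the same order, with a ratio of 1.08 and an interval of 0.850 to 1.37. Hyperthyroid replicates 1 and 2 were the highest arrays on this probe set, whereas replicate 2 was the lowest on the other.

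Bnip3 is shown with its upstream sequence because it is a known target of hypoxia-inducible factors. The window (RefSeq, GRCr8, chr1:203154913-203155212, minus strand) is written 5' to 3' from 250 bases before to 50 after the start, with the hypoxia response core (ACGTG, or with G in place of its first base GCGTG) and its complements in capitals.

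Bnip3: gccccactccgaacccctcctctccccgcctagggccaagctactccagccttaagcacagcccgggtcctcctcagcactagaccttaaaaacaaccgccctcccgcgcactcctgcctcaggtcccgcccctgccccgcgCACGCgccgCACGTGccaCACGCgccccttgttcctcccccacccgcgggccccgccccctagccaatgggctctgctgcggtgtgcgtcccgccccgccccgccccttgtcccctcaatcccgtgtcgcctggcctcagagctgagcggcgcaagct

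The core matched 4 times, at positions -108, -99, -98 and -90, of which the middle pair overlap in 1 palindrome read from both strands. Some match to the core was present in 41.6% of all windows. Among the other members with an entry, Bcl2l11 also held 4 matches, Bcl2l1 held 2 over its windows, and Bcl2 and Bad held 1 each. Mcl1, Bak1 and Bid held none. Of 13 tested genes known to be induced by hypoxia, 8 lay above 0 and 5 below in log2 fold change (11 and 2 with scaling to hybridization controls), with a median of 0.27, and none was called. Pfkfb3, a regulator of glycolysis, differed by 1.14 ± 0.46 (SE), but its other tested probe set gave -0.76. Ankrd37, a target of hypoxia-inducible factors, differed by 0.72 ± 0.27 and Egln3, a prolyl hydroxylase of the oxygen sensor, by -0.48 ± 0.19 (SE).

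Around the members, 93 other genes were tested in 8 lists, each gene by its brightest tested probe set. A further 12 were on the array but under the filter. Beside genes of cell death, MCL1 turnover and mitophagy, the lists held hypoxia-induced genes, transcription factors and genes of mitochondrial fusion and fission. The lists were drawn up with earlier results of these arrays known. None of the 93 was called (limma, smallest adjusted p = 0.313). An unadjusted p under 0.05 was reached by 13 of them, 8 higher and 5 lower, or 14.0% against 10.4% of all 10200 genes tested. The groups did not overlap for 6 of them (5 higher and 1 lower), or 6.45%, against 6.55% of all genes. Over the 93 genes the log2 fold changes had a median of 0.011. Centring on array medians moved the median of all probe sets from -0.0077 to 0.21 and scaling to hybridization controls moved it to 0.30, and values of the lists moved with it. Counts above and below 0 therefore depend on the scaling.

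Of the proteins that set the life of MCL1, 9 were tested. Of these, 6 were above 0 and 3 below, with a median of 0.24, and 2 had an unadjusted p under 0.05. With either of those scalings all 9 were above 0, with medians of 0.46 and 0.55 against 0.21 and 0.30 over all probe sets. Fbxw7, a subunit of a ubiquitin ligase that marks MCL1 for destruction, gave 163, 157, 131 and 108 in hyperthyroid muscle and 87.1, 77.7, 83.5 and 83.5 in controls. The groups did not overlap, and its log2 fold change was 0.71 ± 0.24 (SE, limma adjusted p = 0.367), while its other tested probe set gave 0.19. Usp9x, which removes ubiquitin from MCL1, gave 0.43 ± 0.16 (SE, limma adjusted p = 0.424), also without overlap, but its other 3 tested probe sets ran from -0.89 to 0.20. The ligase and the deubiquitinase thus had positive values side by side on the probe sets used, and neither passed.

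Of 10 tested further genes of the BCL2 family and its partners, 3 lay above 0 and 7 below, with a median of -0.12, and none was called. With hybridization control scaling 8 lay above 0 and 2 below, with a median of 0.18 against 0.30 over all probe sets. Bag3, a co-chaperone that binds BCL2, gave -0.40 ± 0.15 (SE, limma adjusted p = 0.443). In the list of mitochondrial release and caspases the median was also -0.12, with 5 above 0 and 12 below of 17, and none was called. That balance turned to 10 above 0 and 7 below with centring on array medians. Under hybridization control scaling 16 genes of this list were tested, 14 above 0 and 2 below, with a median of 0.17. Endog, a mitochondrial nuclease released in cell death, differed by -0.65 ± 0.20 (SE, limma adjusted p = 0.313), with means of 411 ± 67.7 and 653 ± 149 (SD, n = 4 each). Casp6, an effector caspase, gave 8.14, 60.5, 5.86 and 18.4 in hyperthyroid muscle and 59.5 to 115 in controls, so hyperthyroid replicate 2 lay within the controls (limma adjusted p = 0.332). Mtch2, a receptor for BID on the outer mitochondrial membrane, gave 0.34 ± 0.12 (SE, limma adjusted p = 0.409), and its groups did not overlap, while its other tested probe set gave 0.19.

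Of 8 death receptor genes, 4 were above 0 and 4 below (6 and 2 with hybridization control scaling), and none was called or had an unadjusted p under 0.05. Of 13 mitophagy and autophagosome genes, 7 were above 0 and 6 below (all 13 above 0 with hybridization control scaling), with a median of 0.013, and none was called. Rheb, a small GTPase that activates mTORC1 and is linked to BNIP3L, gave -0.27 ± 0.12 (SE, limma adjusted p = 0.497), and its second tested probe set gave -0.31. Of the fusion and fission genes, 7 were above 0 and 3 below, with a median of 0.18, and none was called. All 10 were above 0 with hybridization control scaling, with a median of 0.50. Opa1, which fuses inner membranes, gave 0.53 ± 0.17 (SE, limma adjusted p = 0.343) without overlap, and its other tested probe set gave 0.17. Immt, a scaffold of inner membrane folds, gave 0.28 ± 0.13 (SE), while its 2 other tested probe sets gave -0.65 and -0.39.

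Among transcription factors that act on family genes, 10 values were above 0 and 3 below (11 and 2 with hybridization control scaling), with a median of 0.090, and none was called. Atf5, a stress-induced factor, gave 0.49 ± 0.21 (SE, limma adjusted p = 0.480), and its lowest hyperthyroid array (188) was just above the highest control (186).

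**Figure D5:**
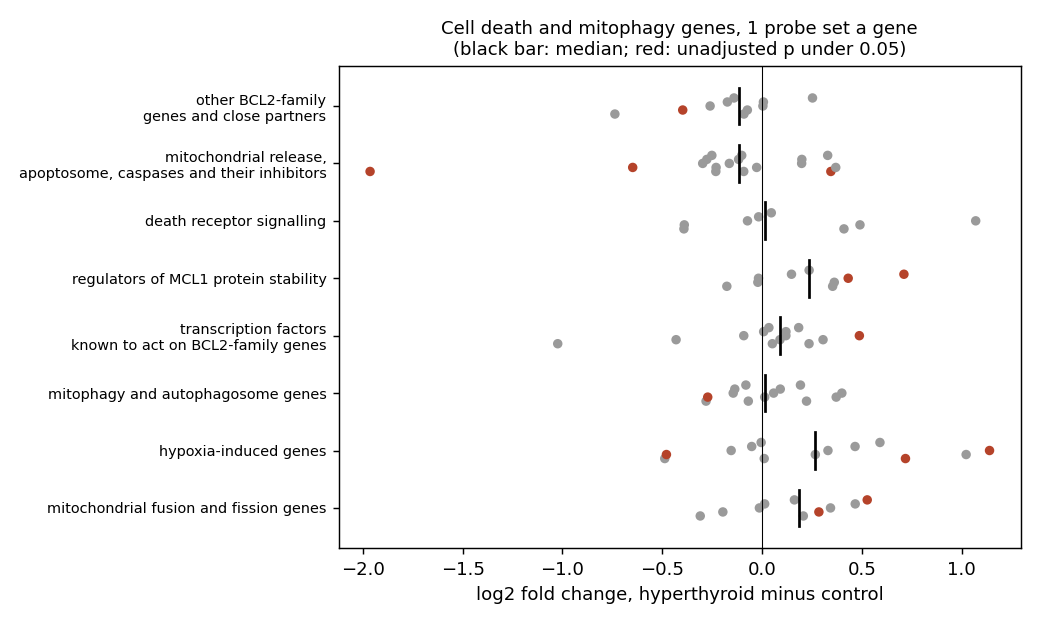
Log2 fold changes of the 93 tested genes around the family in 8 lists, 1 point a gene and a black bar at each median; red points had an unadjusted p under 0.05. The medians lie between -0.12 and 0.27, and none of the genes passed after adjustment.

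The genes whose pattern over the 8 arrays was most like that of the brighter Mcl1 probe set were found by the root mean square difference of centred log2 values. They were Syncrip-ps2 (0.120), rnf141 (0.134), Hlf (0.140), Bzw1 (0.149) and Zfand2a (0.192). Syncrip-ps2 is annotated as a pseudogene of Syncrip, so its probe set may read either locus. Hlf encodes a transcription factor of the circadian output. A flat profile would lie at 0.586. All 5 had hyperthyroid arrays above all controls, as a pattern like that of Mcl1 requires. Bzw1 gave 944, 916, 972 and 1156 in hyperthyroid muscle and 374, 508, 637 and 345 in controls.

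Among the family itself, the closest profiles were the dimmer Mcl1 probe set (0.430, rank 639 of 18624) and Bnip3 (0.451, rank 866). Both probe sets of Bnip3l were at the distance of a flat profile (0.587 and 0.584). Bak1, Bid, Bcl2l11 and Bad were farther than that, at 0.922, 0.971, 1.17 and 1.29. The distance is not scaled by spread, so a probe set that varies widely within groups lies far off for that alone. Bad, with a log2 fold change of 1.09, had a within-group SD of 1.44 on the log2 scale against 0.20 for Mcl1. No member apart from Mcl1 was among the 5 nearest.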

How the data were processed

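RNA of 8 tibialis anterior muscles was hybridised to Affymetrix arrays, 1 per rat. The authors' deposited intensities are linear, and GCOS is named in the submitters' processing notes, with version and settings not given in the sources used here. Each array had a mean of 150 with 2% left out at each end, the mark of scaling to 1 target. Affymetrix controls (57) were left out. Symbols came from the platform annotation (20826 probe sets with 1 symbol, 436 with several, 9780 with none), and 20758 matched RefSeq by Entrez identifier.

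To each value 3.41 was added, the 10th percentile over all arrays, before log2 was taken, and probe sets with a mean log2 above the 40th percentile (4.69) were kept. All 18625 were fitted with limma 3.58.1 in R 4.3.3 (variance trend, two-sided, Benjamini-Hochberg). The fit was tested on simulated data. Technical measures were compared by exact permutation over 70 assignments. The number of arrays limits the precision.

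The members and lists were chosen with earlier results of these data known. Named list genes are those among the 4 of smallest p of each list with an unadjusted p under 0.05, and the 5 profiles nearest to Mcl1. Alternatives changed the normalization, pseudocount, filter, variance model, unit tested, threshold and arrays used.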

Additional observations from a re-analysis of the deposited data

Results flagged for a closer look

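Within a group of 4 arrays, the highest or lowest array was marked where its gap to the nearest other array exceeded 0.829 of the group's range, which chance gives in about 1 in 20 groups, and 58 groups were examined. For member probe sets the rule was applied to the log2 values used in the fit, not to the intensities. Of their 32 groups, 1 was marked on that scale: control replicate 8 was high for Bnip3l (1367898_at), where its intensity was 1056. The count holds for the log2 values only, since a gap above dim arrays takes a larger share of the range on intensities. Hyperthyroid replicate 2 was marked in the share of signal of the 100 brightest probe sets (25.1%) and in the mean log2 signal of the hybridization controls (11.54), and in both it was the hyperthyroid array nearest to the controls. Control replicate 11 was marked in the mean log2 level of the leukocyte markers (6.30).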

How the results depend on the processing

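The call of Mcl1 (1372520_at) held under 12 of 23 alternatives. Its value was above 0 under all of them, but many could not have turned its sign. With groups that do not overlap, leaving out arrays cannot do so. Changes of filter, variance trend or threshold, and a robust variance, leave the value as it is. The call was lost with no trend of variance (1.12, limma adjusted p = 0.538), with the mean of all tested probe sets of a gene (0.74, adjusted p = 0.261), without both control replicates 7 and 11 (0.92, adjusted p = 0.165) and at an adjusted p under 0.01 (1.12). It was also lost in 7 of 8 fits with 1 array left out, whose values ran from 1.02 to 1.20. The count of member probe sets called, 1, was 0 in those same settings, and ran from 0 to 1 with 1 array left out. Of all tested probe sets, 6 were called, all higher. The count was 19 with centring on array medians, 118 with scaling to hybridization controls, 16 with no filter (15 higher, 1 lower), 22 with a robust variance (12 higher, 10 lower) and 10 with array weights (9 higher, 1 lower). It was 0 with no trend of variance and 1 each with the mean of probe sets per gene, without both control replicates 7 and 11 and at an adjusted p under 0.01, and it ran from 0 to 5 with 1 array left out. The cause was not tested. No gene of the surrounding lists was called under any alternative.

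Of 151 values of the other 8 tested member probe sets, 145 moved by less than 1 within-group SD and none was called. The other 6 were Bnip3 and both Bnip3l probe sets under centring on array medians and scaling to hybridization controls, which moved the median of all probe sets to 0.21 and 0.30 on the log2 scale. Changes of filter or variance trend, and a robust variance, cannot move these values, so the 145 include values that were fixed in advance. Bak1 was not tested with the filter at the 60th percentile. No paired analysis was possible because the groups share no replicate number. The dim probe sets of Bcl2 and Bcl2l1 limit what these arrays show of them.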
